A study of Mus musculus with 16 samples.

Results

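The early growth response genes Egr1, Egr2, Egr3 and Egr4 and the NGFI-A binding protein genes Nab1 and Nab2 were examined in the brains of aged mice treated with adropin. They were chosen by gene symbol, with earlier results of these data known, and all 6 were found among the 40481 genes of the count table. EGR proteins are zinc finger transcription factors whose genes are switched on within minutes by synaptic activity and growth factors, through serum response factor at CArG boxes and CREB at cyclic AMP response elements. They bind GC-rich sites such as GCGTGGGCG, and in neurons Egr1 is widely used as a marker of recent activity and is needed for long-term memory. NAB1 and NAB2 are corepressors that bind EGR1, EGR2 and EGR3 and limit their activity, whereas EGR4 lacks the NAB-binding region, and Nab2 is itself induced by EGR proteins.

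C57BL mice (C57BL/6J in the methods) aged 18 months received a daily intraperitoneal injection of adropin(34-76) at 90 nmol/kg, suspended in saline with bovine serum albumin, or of the saline diluent alone, with 15 mice in each group. Adropin is a secreted peptide encoded by Enho. Injections were given for 2 weeks before behavioral testing and continued through it, and mice were fasted for 6 h before brain tissue was taken. Polyadenylated RNA from 8 mice of each group was sequenced. Markers of neurons, astrocytes, oligodendrocytes, microglia and endothelial cells were all detected, and none was at 0. Library totals ranged from 35185051 to 70314050 counts with adropin and from 35026503 to 47245785 with saline. In bulk tissue, fewer cells expressing a gene and less RNA per cell cannot be told apart.

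The promoter sequences of Egr2 and Egr4, the members with the smallest p-values, are shown because the inputs to these genes act through sites near their start. They were taken from RefSeq on GRCm38.p6, as the 250 bases upstream of an annotated start, 5′ to 3′ on the strand of the gene. RefSeq windows were matched for Egr2 (5 start sites), Egr4, Nab1 and Nab2. Egr1 and Egr3 are named only. The Egr2 window shown was chosen after motifs had been counted in all 5, from those with no annotated exon bases. It lies within the annotated Egr2 gene, upstream of an internal start. Capitals mark CArG boxes and the cyclic AMP response element half-site TGACG, searched on both strands.

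Egr2, chr10:67537619-67537868, plus strand: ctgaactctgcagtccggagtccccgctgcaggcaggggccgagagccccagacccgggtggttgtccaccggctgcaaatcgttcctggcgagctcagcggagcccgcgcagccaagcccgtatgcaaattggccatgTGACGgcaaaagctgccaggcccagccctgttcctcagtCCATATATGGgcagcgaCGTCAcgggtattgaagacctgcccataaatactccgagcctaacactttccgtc

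Egr4, chr6:85513590-85513839, minus strand: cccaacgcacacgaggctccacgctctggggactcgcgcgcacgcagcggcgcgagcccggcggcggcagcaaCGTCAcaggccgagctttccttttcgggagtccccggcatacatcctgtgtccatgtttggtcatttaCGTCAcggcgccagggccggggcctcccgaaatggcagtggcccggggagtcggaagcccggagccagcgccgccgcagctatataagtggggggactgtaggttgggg

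The Egr2 window held a CArG box starting 72 bases upstream and half-sites starting 111 and 55 bases upstream. Both motifs were also in the 2 Egr2 windows that overlap it, whereas of the others 1 held only a CArG box and 1, farthest upstream, held neither. The Egr4 window held half-sites starting 177 and 109 bases upstream and no CArG box. Among 32851 RefSeq windows of the same length, 1.47% held a CArG box and 17.8% held the half-site. The Nab1 window held the EGR site GCGTGGGCG on both strands, a match found in 0.536% of windows, and the 30 bases around each are given with the site in capitals. Both lie within the annotated Nab1 gene, since 231 of the 250 bases of this window are exon. It also held GCGGGGGCG, found in 2.57% of windows, and the half-site. The Nab2 window held none of the motifs searched.

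Nab1, chr1:52500570-52500599, minus strand: gccccgcggcCGCCCACGCcgggatctgcg

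Nab1, chr1:52500538-52500567, minus strand: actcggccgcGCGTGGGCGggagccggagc

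To learn whether adropin treatment changed the family, counts of 14950 genes were tested with the quasi-likelihood method of edgeR. At an unadjusted p below 0.05, 3 of the 6 genes were lower in adropin-treated mice (Egr2, Egr4 and Nab2) and none was higher. Over all genes tested, 2.13% were lower by the same rule. The 6 genes were chosen with earlier results of these data known, so this share is given only as a description. Egr2 alone also passed a fold change of 1.5, a rule met in the lower direction by 0.308% of genes tested. No gene had a Benjamini-Hochberg adjusted p below 0.05 in edgeR, where 599 genes had an unadjusted p below 0.05, or in limma-voom. In DESeq2, Egr4 was the only member below this threshold. Levels are given below as CPM, the counts of a gene scaled to the library, after TMM normalization, which corrects library totals for differences in composition, as mean ± SD of 8 mice per group.

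Egr4, at chr6:85511121-85513589 on the minus strand of GRCm38, had the smallest p-value of all genes tested. In adropin-treated mice its lowest, median and highest levels were 33.8, 36.3 and 54.4 CPM, and in saline-treated mice they were 43.8, 57.1 and 64.6 CPM. The groups overlapped through 1 mouse, since 7 of 8 adropin-treated mice lay below the lowest saline-treated mouse and only mouse 5_5, at 54.4 CPM, did not. Names such as 5_5 are the number pairs in the labels, with no stated meaning. The mean was 38.5 ± 6.77 CPM with adropin and 56.2 ± 6.89 CPM with saline (exact permutation, two-sided p = 0.000622), which is 31.5% lower. The log2 fold change was -0.55 with a standard error of 0.098 (first of 14950 genes by p in edgeR, Benjamini-Hochberg adjusted p = 0.387). Egr4 remained first or second by p when any 1 mouse was left out, with adjusted p-values from 0.00289 without mouse 5_5 to 0.992. When the first label number was the block, it was number 102 by p, with a log2 fold change of -0.42 (edgeR, Benjamini-Hochberg adjusted p = 0.939). With the second label number it was first, at -0.58 (edgeR adjusted p = 0.0447), and with 1 surrogate variable it was second, at -0.61 (edgeR adjusted p = 0.0105). The adjusted p was 0.000627 in DESeq2 and 0.306 in limma-voom.

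Egr2, also called Krox20, patterns the hindbrain and drives myelination in Schwann cells, and is activity-induced in forebrain neurons. It lies at chr10:67535475-67542188 on the plus strand. Its lowest, median and highest levels were 2.76, 5.31 and 12.1 CPM with adropin and 4.49, 15.0 and 20.01 CPM with saline. All 8 adropin-treated mice lay below the saline median, and the groups overlapped through saline-treated mouse 5_4, the lowest of its group at 4.49 CPM, and adropin-treated mouse 5_5, the highest of its group. This was the largest fold change of the 6 genes, with a mean of 6.02 ± 3.09 CPM against 13.8 ± 4.94 CPM (exact permutation, two-sided p = 0.00559). The log2 fold change was -1.19 with a standard error of 0.30 (rank 9 by p in edgeR, Benjamini-Hochberg adjusted p = 0.873). It passed the unadjusted threshold in 14 of 15 other settings and failed when the first label number was the block, where the log2 fold change was -0.88. Its counts, from 103 to 780 per mouse, were the fewest of the 6 genes.

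Egr1, also called Zif268, had a smaller difference. It lies at chr18:34859823-34864984 on the plus strand. Lowest, median and highest levels were 195, 402 and 479 CPM with adropin and 287, 517 and 619 CPM with saline. All 8 adropin-treated mice lay below the saline median, but only 2 lay below the lowest saline-treated mouse. The means, 365 ± 110 CPM and 483 ± 127 CPM, did not differ beyond the spread between mice (exact permutation, two-sided p = 0.0974). The log2 fold change was -0.40 with a standard error of 0.20 (edgeR, Benjamini-Hochberg adjusted p = 0.873). Its unadjusted p lay above 0.05 in this fit and below it in 9 of 15 other settings, with DESeq2 and both limma-trend fits among the 9 but not limma-voom. It was also below it in 4 of the 16 fits that left out 1 mouse (adropin-treated 1_3 or 5_5, saline-treated 5_4 or 6_1). Over the 15 settings the log2 fold change ran from -0.70 with the pyramidal marker score as a covariate to -0.16 when the first label number was the block.

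Egr3, another activity-induced member of the family, did not differ detectably between groups in the fit with no covariate. It lies at chr14:70077203-70082614 on the plus strand. Lowest, median and highest levels were 30.1, 86.9 and 97.6 CPM with adropin and 24.2, 72.3 and 95.4 CPM with saline, so that the ranges nearly coincided. The means were 74.1 ± 26.4 CPM and 69.6 ± 24.8 CPM (exact permutation, two-sided p = 0.768). The log2 fold change was 0.09 with a standard error of 0.27 (edgeR, Benjamini-Hochberg adjusted p = 0.946), and without saline-treated mouse 5_4 it was -0.036. With 1 surrogate variable or the first principal component of all genes as a covariate it was -0.27, and the unadjusted p was below 0.05 in both (edgeR, Benjamini-Hochberg adjusted p = 0.933 and 0.805).

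Nab2, at chr10:127660918-127668568 on the minus strand, was the corepressor gene with an unadjusted p below 0.05. Lowest, median and highest levels were 37.1, 44.0 and 52.9 CPM with adropin and 41.5, 52.7 and 61.4 CPM with saline. The groups overlapped, with 3 adropin-treated mice below the lowest saline-treated mouse. The means were 44.0 ± 5.31 CPM and 51.7 ± 5.94 CPM, 14.9% lower (exact permutation, two-sided p = 0.0180). The log2 fold change was -0.23 with a standard error of 0.082 (rank 102 by p in edgeR, Benjamini-Hochberg adjusted p = 0.873). It did not pass the unadjusted threshold with the choroid plexus marker score as a covariate (-0.19) or when the first label number was the block (-0.20). Exons of Nab2 share 40 bases with Stat6, 151 with Nemp1 and 1050 with the antisense gene Gm16229, all on the opposite strand. Whether counting used strand is not given in the sources used here, so the Nab2 count is uncertain. Neither protein-coding neighbour passed the test, with log2 fold changes of 0.13 for Stat6 and -0.04 for Nemp1. Gm16229 had a mean of 0.0057 CPM with adropin and 0.0090 CPM with saline and was not among the genes tested.

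Nab1, at chr1:52457294-52500679 on the minus strand, had 28.4 ± 2.46 CPM with adropin and 29.8 ± 2.33 CPM with saline (exact permutation, two-sided p = 0.246). Its log2 fold change was -0.07 with a standard error of 0.063 (edgeR, Benjamini-Hochberg adjusted p = 0.873). Individual mice ranged from 24.6 to 32.0 CPM with adropin and from 25.8 to 33.9 CPM with saline, which overlapped almost throughout.

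**Figure D1:**
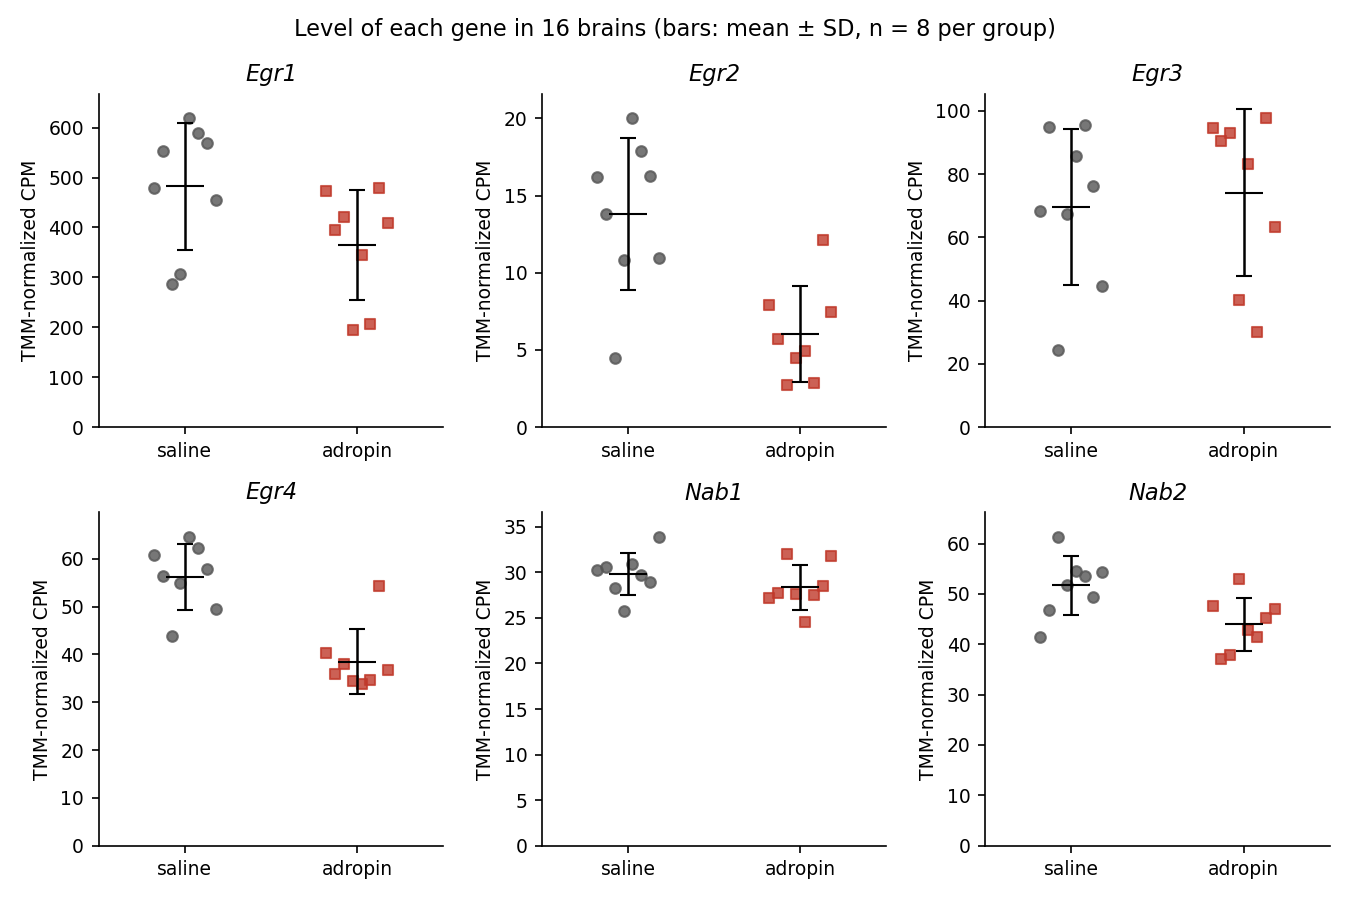
TMM-normalized CPM of the 6 genes in each of 16 mice (points; gray circles, saline; red squares, adropin), with the mean and SD of 8 mice per group as bars. For Egr4, 7 of 8 adropin-treated mice lie below every saline-treated mouse, whereas the Egr3 and Nab1 groups overlap.

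The corepressor and EGR genes also differed in level and in spread. Per kilobase of merged exons, mean levels over 16 mice were 94.6 CPM for Egr1, 22.1 for Egr4, 16.3 for Egr3, 16.3 for Nab2, 7.09 for Nab1 and 2.92 for Egr2. Egr1 was above Egr4, Nab2 above Nab1 and Nab1 above Egr2 in 16 of 16 mice. Egr4 was above Egr3 in 12 mice and Egr3 above Nab2 in 10, so the order of these neighbours was not the same in every mouse.

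Egr2, Egr3 and Egr1 were among the most variable genes between mice of the same group. Their within-group SDs on the log2 scale were 0.70, 0.66 and 0.47, each above the SD of at least 99.2% of the 500 genes nearest in level. Egr4 had an SD of 0.21, above 79.8% of the 500 genes nearest to it in level, Nab2 one of 0.17 (above 62.0%) and Nab1 one of 0.12 (above 27.6%).

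Because the EGR genes rose and fell together between mice, they were also compared within each library, as the log2 ratio of a pair in the same mouse, which does not depend on the scaling of the library. These ratios were examined after the levels had been seen. The ratio of Egr2 to Egr3 separated the groups completely. It ranged from -5.05 to -3.01 in adropin-treated mice and from -2.77 to -2.02 in saline-treated mice. The means were -3.66 ± 0.69 and -2.33 ± 0.27 (n = 8 each), a difference of -1.33 (exact permutation, two-sided p = 0.000155, the smallest that 8 against 8 mice can give, Benjamini-Hochberg adjusted p = 0.00233 over 15 pairs). When each of the 14949 other genes was set against Egr3 in the same way, Egr2 was the only gene with all adropin-treated mice below all saline-treated mice, or 0.00669%.

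Egr1 was also lower relative to Egr3, with a difference in log2 ratio of -0.52 (exact permutation, two-sided p = 0.0127, Benjamini-Hochberg adjusted p = 0.0382). Egr3 was higher relative to Egr4 by 0.65 (exact p = 0.0303, adjusted p = 0.0568), which missed the threshold after adjustment. So did Egr2 relative to Egr4, with a difference of -0.68 (exact p = 0.0294, adjusted p = 0.0568). Egr2 fell relative to Egr1, whose ratio to Egr2 was higher by 0.81 (exact p = 0.00373, adjusted p = 0.0186). Relative to Nab1, the gene with the least spread, Egr4 differed by -0.48 (exact p = 0.00186, adjusted p = 0.0140) and Egr2 by -1.16 (exact p = 0.00684, adjusted p = 0.0256). The ratio of Nab1 to Nab2 differed by 0.16 (exact p = 0.163, adjusted p = 0.223).

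**Figure D2:**
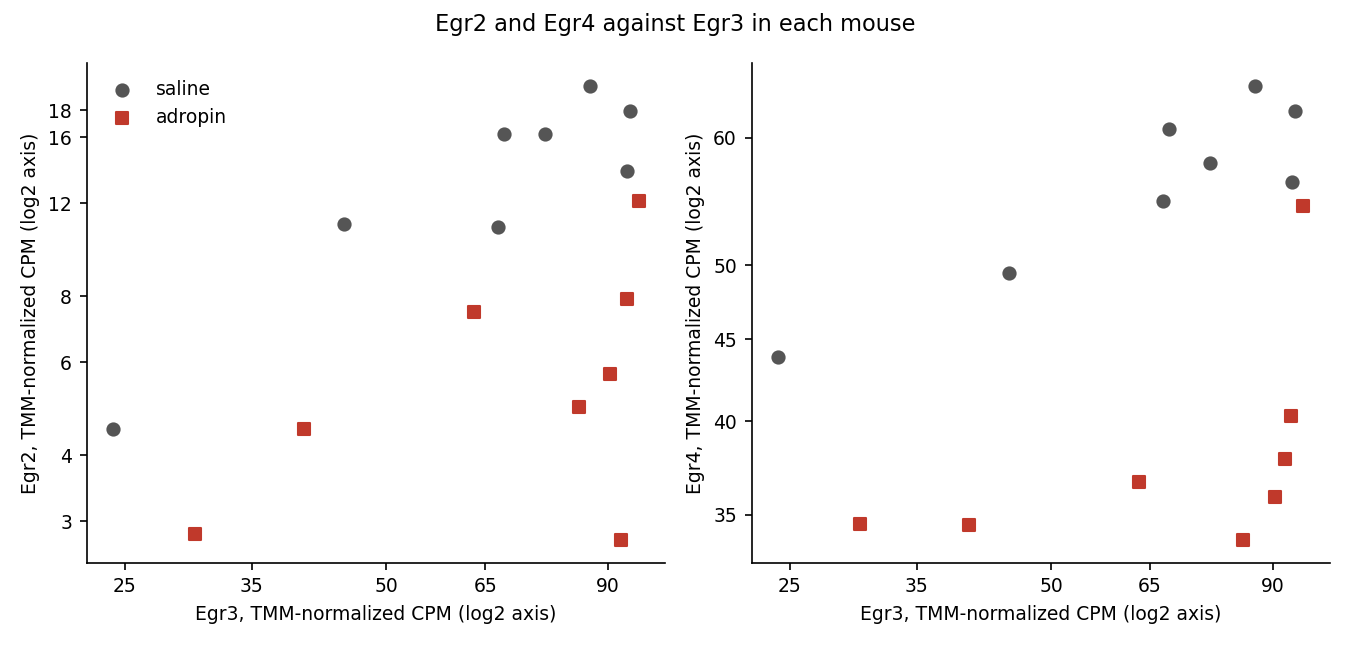
Egr2 (left) and Egr4 (right) against Egr3 in each mouse, as TMM-normalized CPM on log2 axes (gray circles, saline; red squares, adropin; n = 8 each). At a like level of Egr3, adropin-treated mice had less Egr2, and 7 of 8 had less Egr4 than every saline-treated mouse.

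Covariation between mice was measured as Pearson's r of log2 levels after subtracting group means, with 100000 permutations of mice within groups and Benjamini-Hochberg adjustment over 15 pairs. All 6 pairs among the EGR genes were correlated at an adjusted p below 0.05, and 0 of the 9 pairs with Nab1 or Nab2 were (0 at an unadjusted p below 0.05). Such correlations were common among all genes for Egr1 and Egr3. Of 14949 genes ordered by r with Egr3, Egr1 was number 1235, Egr2 number 2709 and Egr4 number 2950, and by r with Egr1, Egr3 was number 352, Egr2 number 1563 and Egr4 number 2087. The strongest was Egr1 with Egr3 (r = 0.85, permutation p = 0.00105, adjusted p = 0.00787, Spearman's rho = 0.84, permutation p = 0.00013), and r was 0.76 without the 2 mice farthest from the median of Egr1. Egr2 with Egr4 followed (r = 0.81, permutation p = 0.00012, adjusted p = 0.0018, rho = 0.80, permutation p = 0.00032), with r = 0.64 without the 2 mice farthest from the median of Egr2. The other EGR pairs had r from 0.66 to 0.71 and rho from 0.64 to 0.83. Within the saline group alone all 6 EGR pairs had an unadjusted exact permutation p below 0.05 (r from 0.77 to 0.95, rho from 0.79 to 0.98). Within the adropin group 2 did, Egr1 with Egr3 (r = 0.92, exact p = 0.00863) and Egr2 with Egr4 (r = 0.70, exact p = 0.0362). The others had r from 0.49 to 0.59. By rank they had rho of 0.93 (Egr1 with Egr4), 0.79 (Egr3 with Egr4), 0.62 (Egr1 with Egr2) and 0.57 (Egr2 with Egr3), given without a test. The difference between the groups was not tested. Nab2 tended the opposite way to Egr3 (r = -0.44, permutation p = 0.105, adjusted p = 0.225, rho = -0.27, permutation p = 0.323, r = -0.46 without 2 mice), which did not pass.

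One saline-treated mouse weighed on these relations. Mouse 5_4 had the least Egr1, Egr2, Egr3 and Egr4 of the saline group and the most Nab2 of all mice. Without it, 2 of the 15 pairs remained below an adjusted p of 0.05, Egr1 with Egr3 (r = 0.82) and Egr2 with Egr4 (r = 0.74). The EGR pairs kept positive correlations of 0.53 to 0.82 without this mouse.

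**Figure D3:**
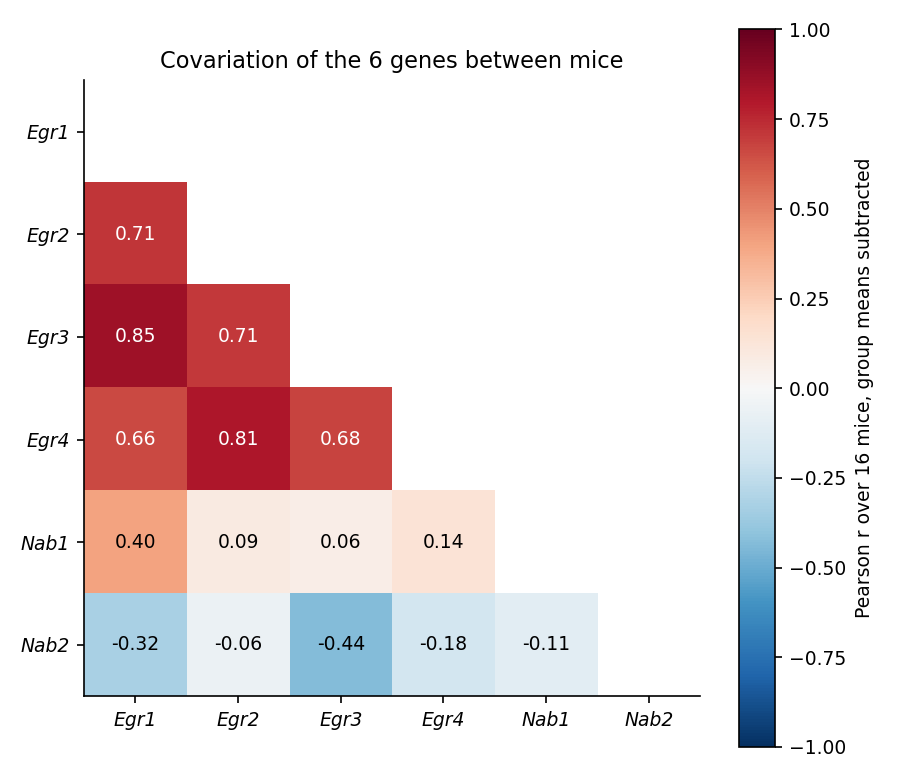
Pearson's r between the 6 genes over 16 mice, from log2 TMM-normalized CPM with group means subtracted (color, from -1 to 1). The 6 pairs among Egr1 to Egr4 have r from 0.66 to 0.85, and the pairs that include Nab1 or Nab2 lie between -0.44 and 0.40.

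The first principal component of all genes tested, which held 34.1% of the variance, moved most with Egr3. Over 16 mice its r was -0.94 with Egr3, -0.55 with Egr1, -0.22 with Egr2 and -0.07 with Egr4. After subtraction of the group means of each gene and of the score it was -0.96 with Egr3, -0.78 with Egr1, -0.60 with Egr2 and -0.57 with Egr4, against -0.09 with Nab1 and 0.47 with Nab2. These are given without a test, because the component was computed from the same libraries and includes these genes. The 4 mice with the highest scores (saline-treated 5_4 and 8_3, adropin-treated 4_3 and 3_3) were the 4 with the least Egr3, at 24.2, 44.7, 30.1 and 40.3 CPM. Without subtraction of group means, all 79 ribosomal protein genes tested rose with the component (median r = 0.925), and genes with a greater total exon length fell with it (Spearman's rho = -0.506 across 14950 genes, which are not independent). RNA integrity per mouse was not analysed here, and its part in this component was not tested.

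With the component as a covariate, an alternative chosen after the data were seen, all 6 genes were lower with adropin. Of these, 5 had an unadjusted p below 0.05, a rule met in the lower direction by 369 of 14950 genes tested. The log2 fold changes were -0.65 for Egr1, -1.42 for Egr2, -0.27 for Egr3, -0.61 for Egr4 and -0.18 for Nab2, and -0.08 for Nab1, which did not pass. Egr4 then had a Benjamini-Hochberg adjusted p of 0.0101 in edgeR. With the component removed, none of the 15 pairs was correlated at an adjusted p below 0.05, while r among the EGR genes was 0.42 to 0.71.

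**Figure D4:**
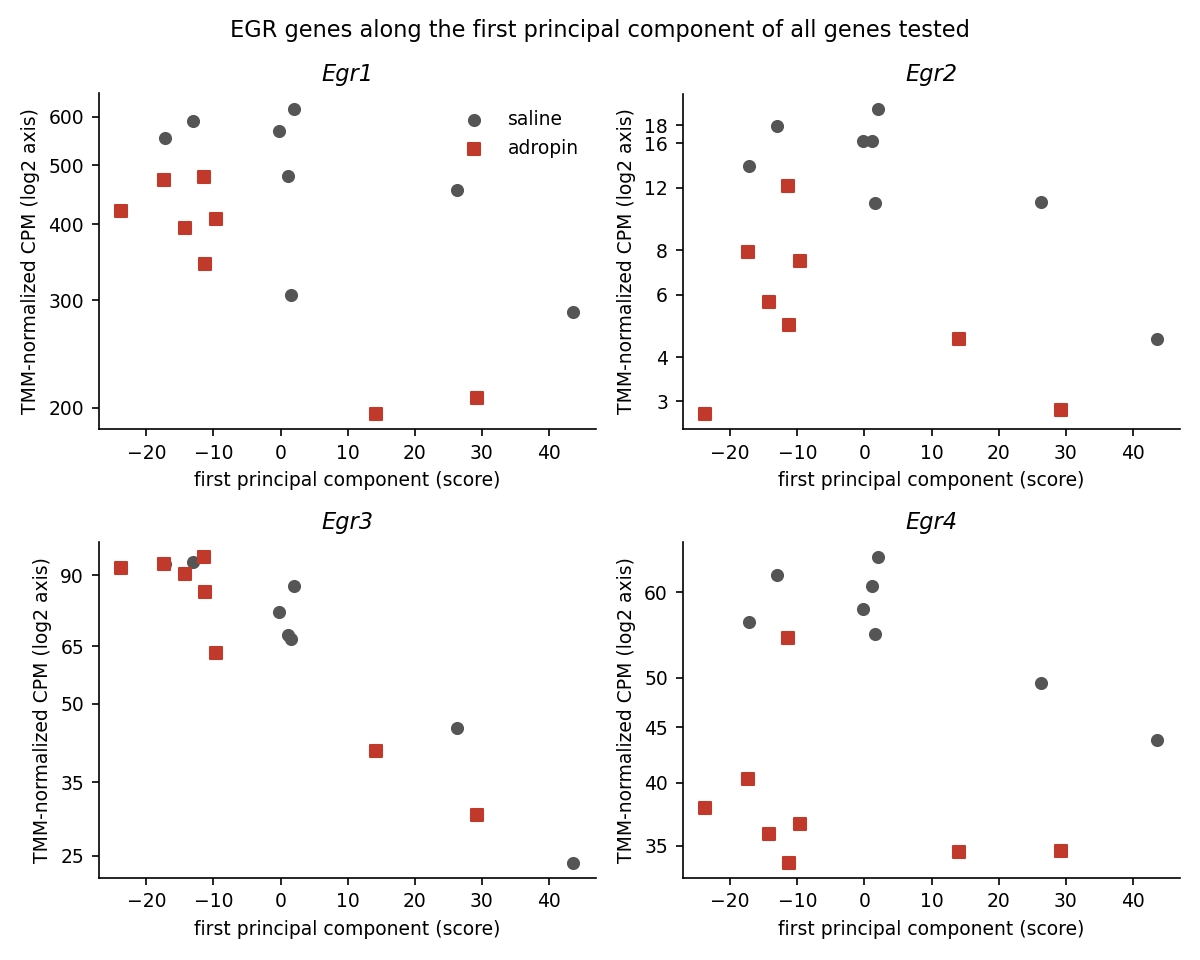
TMM-normalized CPM (log2 axis) of the 4 EGR genes against the score of each mouse on the first principal component of 14950 genes (gray circles, saline; red squares, adropin). Egr3 falls along the component in both groups alike, whereas for Egr4 the adropin-treated mice other than 5_5 lie below the saline-treated mice along its length.

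**Figure D5:**
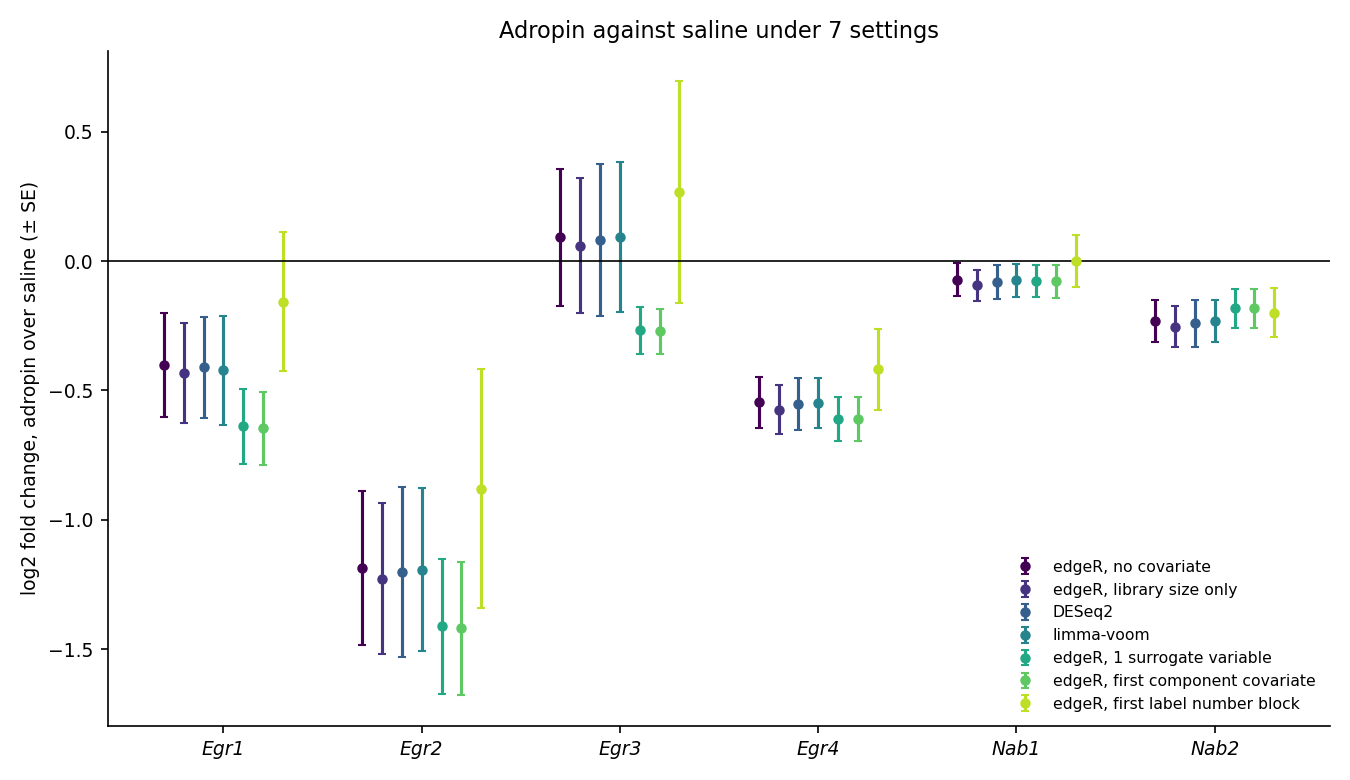
Log2 fold change of adropin over saline, with its standard error, for the 6 genes under 7 settings (colors). Egr1, Egr2, Egr4 and Nab2 are below 0 in all 7, and Egr3 changes sign when 1 surrogate variable or the first component is a covariate.

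Markers of regions that a brain sample can hold in varying amounts were set beside these results. All 6 choroid plexus markers had counts, 5 were tested and all 5 were lower with adropin at an unadjusted p below 0.05. Their summed level was 11.3 to 73.6 CPM in adropin-treated and 12.6 to 2465 CPM in saline-treated mice. Their mean score had r of -0.33 with Egr1, -0.44 with Egr2, -0.56 with Egr3, -0.38 with Egr4, 0.37 with Nab1 and 0.27 with Nab2. Of the 6 markers of cortical and hippocampal pyramidal neurons none passed the test, and they summed to 8385 to 10108 CPM and 7919 to 10139 CPM. Their mean score had r = 0.67 with Egr1 and 0.57 with Egr3 between mice, given as a description. Of 3 cerebellar neuron markers tested 2 were lower with adropin, and the 6 with counts summed to 38.0 to 63.3 CPM with adropin and 36.9 to 494 CPM with saline. Of 5 thalamic markers 1 was lower, with sums of 105 to 145 CPM and 91.3 to 158 CPM, and their mean score had r = 0.48 with Egr1 and 0.44 with Egr2. Of all marker scores and members the strongest r was that of oligodendrocytes with Nab1 (0.73), where none of 5 markers passed the test and sums were 2733 to 7785 CPM with adropin and 2659 to 7817 CPM with saline. Of 5 microglia markers 1 was higher with adropin, and their score had r between -0.13 and 0.07 with the EGR genes. The endothelial score had r = 0.54 with Egr1, the astrocyte score 0.53 with Egr3 and the red blood cell score -0.49 with Egr2. The part of cerebellar, thalamic and oligodendrocyte tissue, and of microglia, endothelial cells, astrocytes and red blood cells, in the results was not tested.

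The choroid plexus and pyramidal scores were each used as a covariate, chosen after the data were seen. With the choroid plexus score the log2 fold changes were -0.54 for Egr1, -1.40 for Egr2, -0.20 for Egr3, -0.61 for Egr4, -0.03 for Nab1 and -0.19 for Nab2. Egr1 then had an unadjusted p below 0.05 in edgeR and Nab2 no longer did. With the pyramidal score they were -0.70 for Egr1, -1.48 for Egr2, -0.29 for Egr3, -0.63 for Egr4, -0.09 for Nab1 and -0.23 for Nab2. All but Egr3 and Nab1 had an unadjusted p below 0.05. Of 14950 genes tested, 216 were lower at this p with the choroid plexus score and 201 with the pyramidal score.

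Genes whose level followed the members most closely between mice were then listed, by Pearson's r over 16 mice with group means subtracted and with no test. Nearest to Egr2 were Nr4a1 (r = 0.89), an activity-induced nuclear receptor, Rassf1 (0.89) and Fos (0.88), a subunit of AP-1. Nearest to Egr4 were Rnf10 (0.85), Fosb (0.83) and Golga4 (0.81). Without the 2 mice farthest from the median of the member, r was 0.84 for Nr4a1, 0.86 for Rassf1 and 0.74 for Fos with Egr2. With Egr4 it was then 0.77 for Rnf10, 0.65 for Fosb and 0.68 for Golga4. For the neighbours of Egr1 and Egr3 named below it was 0.94 to 0.96. Of all genes tested Egr2 was the fourth nearest to Egr4, where Egr3 was number 147 and Egr1 number 217, and Egr4 was number 15 for Egr2, where Egr1 was number 174 and Egr3 number 198. Egr1 and Egr3 had other neighbours. Those of Egr1 included Cacna1i (0.97), a T-type calcium channel, and Fam234b (0.96), and those of Egr3 were Pds5a (0.98), a cohesin regulator, Mrip-ps (0.98) and Gfod1 (0.98). Nab1 was followed most closely by Emc8 (0.86), Tdrd3 (0.82) and Nacc2 (0.79), and Nab2 by Naa16, Gm18284 and Stoml1 (r from 0.80 to 0.81). The mean z-score of the 4 EGR genes was followed by Brsk1, Oprd1, Tbc1d5, Iqsec3 and Rusc2 (r from 0.93 to 0.95), and most inversely by Tmem159, Fam92a and Sp3os (-0.91 to -0.92).

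Genes around the family in its pathway were counted in the same edgeR fit, where the median log2 fold change of all genes tested was -0.0019. Of 14 other activity-induced genes tested, mostly of transcription factors, 9 were lower at an unadjusted p below 0.05 and none was higher. Over all genes tested 2.13% were lower. The median log2 fold change of the 14 was -0.49. This list was chosen with earlier results of these data known. The 9 lower genes were Fos (-0.997), Btg2 (-0.67), Nr4a1 (-0.65), Junb (-0.64), Ier2 (-0.57), Fosb (-0.53), Nr4a3 (-0.46), Fosl2 (-0.35) and Klf10 (-0.28), none with an adjusted p below 0.05. Of 13 neuronal genes described as EGR targets, 2 were lower and none was higher, with a median of 0.02. They were Arc, a regulator of synaptic strength (-0.74), and Psen2, a subunit of gamma-secretase (-0.13).

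The remaining lists held no gene past the test. They were 5 myelin genes regulated by EGR2 in Schwann cells (median -0.13), 18 inputs to EGR transcription such as the serum response and CREB factors and their kinases (median 0.05), 14 subunits of the NuRD complex that NAB proteins recruit (median 0.02), and 7 other zinc finger factors that bind GC-rich sites (median 0.03).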

How the data were processed

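The authors aligned paired-end reads from poly-A selected brain RNA with STAR to the Ensembl release 76 assembly (GRCm38). Counts per gene, which the authors deposited without normalization, were made with featureCounts from reads that aligned uniquely and to 1 gene. The authors also deposited CPM, which divide each count by the total of its library. Of 40757 rows, 276 repeats were dropped. From the counts, TMM factors were calculated in edgeR 4.0.16 (R 4.3.3), genes above 1 CPM in at least 7 mice were kept, 355 ribosomal RNA genes were left out, and 14950 genes were compared by the quasi-likelihood test with no covariate. Single genes were compared by exact permutation over 12870 divisions of the mice. Log2 levels for correlations and ratios used a prior count of 2. Gene coordinates and exon lengths came from GENCODE on GRCm38.

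The alternatives were DESeq2 1.42.0, limma-voom and limma-trend with a pseudocount of 1 or 0.1 (limma 3.58.1), a robust edgeR fit, other size factors and filters, 1 surrogate variable (sva 3.50.0), each label number as a block, and leaving out each mouse. The covariates for the first component and the marker scores were added after the data were seen. Genes are named if they are members, overlap Nab2, pass p below 0.05 in a pathway list, are among the 3 nearest to an EGR gene or Nab2 by r, or are among the 5 highest and 3 lowest for the mean EGR z-score. The genes nearest to Nab1 were added later, and 1 gene nearest to Egr1 is not reported here. The members and lists were chosen with earlier results of these data known. The scripts were tested on simulated data. Each mouse was used as 1 replicate. The number pairs that name mice carry no stated meaning. Library totals were 35026503 to 70314050, which gave 103 to 780 counts for Egr2, the fewest of the 6 genes.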

Additional observations from a re-analysis of the deposited data

Results flagged for a closer look

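Each of the 12 combinations of gene and group was searched for a mouse far from the other 7 by Dixon's criterion, on the CPM and on the log2 scale, which flags about 1 in 20 groups by chance. Saline-treated mouse 5_4 stood apart with the least Egr2 of its group, at 2.18 on the log2 scale of TMM-normalized CPM, but was not flagged on the CPM scale. This mouse also had the least Egr3 of all 16 mice and the highest score on the first principal component. Adropin-treated mouse 5_5 stood apart with the most Egr4 of its group, at 54.4 TMM-normalized CPM (next 40.3) and 5.77 on the log2 scale. It also had the most Egr2 and Egr3 of that group.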

How the results depend on the processing

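Egr1, Egr2, Egr4 and Nab2 were lower with adropin under all 31 alternatives. Of these, Egr4 alone had an unadjusted p below 0.05 in each, with log2 fold changes from -0.63 to -0.42. Compared with 3 of 6 genes below p of 0.05, 5 were below it with 1 surrogate variable and 5 with the first component as a covariate. With the first label number as a replicate block 1 was below it, and Egr2 (-0.88) and Nab2 (-0.20) did not pass. Of 14950 genes tested, 319 were lower at this p with no covariate and 363 with 1 surrogate variable. With the first component 369 were, and with the first-number block 194. Compared with 1 gene past the fold change and p, 3 passed with 1 surrogate variable, 3 with the first component and 3 with the pyramidal marker score. With the choroid plexus score 2 passed, with the first-number block 0, and 1 to 2 when a mouse was left out (2 without saline-treated 5_4 or adropin-treated 5_5). Over all genes tested, 46 were lower past this rule with no covariate. They numbered 34 with 1 surrogate variable, 34 with the first component, 32 with the pyramidal score and 31 with the choroid plexus score. Without saline-treated 5_4 there were 48, without adropin-treated 5_5 47, and with the first-number block 59. In that block the comparison comes from 8 mice, those sharing a first number with a mouse of the other group, so it rests on fewer mice, and the number is not known to pair them. The second number as a block gave 3 and 1 genes, where 276 and 53 of all genes tested were lower by these rules.

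Egr3 turned from 0.09 to -0.27 with 1 surrogate variable, -0.27 with the first component, -0.29 with the pyramidal score, -0.20 with the choroid plexus score and -0.036 without saline-treated 5_4 (range when a mouse was left out, -0.036 to 0.22, the highest without adropin-treated 4_3). Nab1 turned from -0.07 to 0.0014 with the first-number block. The cause of these changes was not tested. Correlated pairs numbered 6, but 0 with the first component removed, 4 with group means not subtracted and 2 to 6 when a mouse was left out (2 without saline-treated 5_4). The planned blocked test of covariation was not run, because 10 mice in 5 cells cannot give a p below 0.0625. In those mice r among the EGR genes was 0.71 to 0.85, and r of Nab2 was -0.64 with Egr2, -0.70 with Egr3 and -0.73 with Egr4, against -0.06, -0.44 and -0.18 in all 16.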
